A study of Mus musculus with 167 samples.

Results

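Cytochrome P450 genes known as targets of the nuclear receptors CAR and PXR were followed through mouse liver, 9 in number: Cyp2b10, Cyp3a11, Cyp3a13, Cyp3a25, Cyp2c29, Cyp2c37, Cyp2c50, Cyp2c54 and Cyp2c55. They are listed by name and are 9 of 39179 genes in the deposited count table. All 9 passed the filter on low counts at every age. The study sequenced polyA RNA from flash-frozen liver of C57BL/6 mice that carry a knock-in CAG tract in 1 copy of Htt, the Huntington's disease gene. Each heterozygous line is named by its repeat number, Q80, Q92, Q111, Q140 and Q175 at the long end and Q20 as the short-repeat line. Wild-type (WT) littermates completed the series and are labelled as housed with the Q20 mice, while each knock-in line was housed with its own. Mice were 2, 6 or 10 months old, and each of the 21 groups of genotype and age held 8 libraries, 4 from females and 4 from males. Exceptions were Q80, with 3 females and 5 labelled males at 2 months, and 4 females and 3 males at 10 months. All knock-in groups are heterozygous, so every liver keeps a normal Htt copy. No drug or inducer is named in the labels.

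CAR (Nr1i3) and PXR (Nr1i2) are receptors that sense foreign chemicals, bile acids and steroids in hepatocytes. Once active they pair with RXR and switch on P450 enzymes, conjugating enzymes and transporters that clear those compounds. Cyp2b10 is the classical CAR target in mouse liver and Cyp3a11 the classical PXR target. The Cyp2c genes encode enzymes that oxidise drugs and also arachidonic acid. In mice many P450 genes are set by sex, through the male and female patterns of growth hormone release.

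The library totals lay between 32025244 and 57151736 counts, with a median of 38663519, and no pair of the 167 libraries was identical. The labels give separate samples but no animal identity, so p-values measure the spread between these samples. The summed level of 5 hepatocyte markers was 57280 CPM (counts scaled to a common library total) or more in every library. Levels below are CPM scaled by TMM (trimmed mean of M values), and levels of different genes are compared only as FPKM, which is per length. A gene is called changed when the quasi-likelihood test of edgeR gave a p below 0.05 after Benjamini-Hochberg adjustment across every gene tested. Some libraries stood apart. The Q80 library labelled male M5 at 2 months went against its label in 5 of the 9 genes, with the highest Cyp2c37 and Cyp3a13 and the lowest Cyp3a11, Cyp2c29 and Cyp2c55 of 29 males. At 6 months macrophage markers were high in 3 Q20 females (F1, F3, F4). The Q111 male M3 of 10 months was high in bile duct markers, some libraries of 10 months held muscle or blood transcripts (more than 1 CPM of Acta1, or more than 1000 CPM of Hba-a1), and the Q111 female F2 of 2 months had the highest level of 27 females in 6 of the 9 genes. Where a call among the 9 genes changed without them, both values are given.

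The 9 genes lie in 4 places of the genome (GRCm38, GENCODE M21). Cyp2b10 (ENSMUSG00000030483) lies at chr7:25897620-25926624 on the plus strand. Cyp3a11 (ENSMUSG00000056035, chr5:145854426-145879964) and Cyp3a25 (ENSMUSG00000029630, chr5:145977194-146009618) are neighbours on the minus strand, and Cyp3a13 (ENSMUSG00000029727, chr5:137892932-137921619) lies apart from them. The 5 Cyp2c genes share a cluster on chromosome 19: Cyp2c55 (ENSMUSG00000025002, chr19:39007019-39042693), Cyp2c29 (ENSMUSG00000003053, chr19:39269405-39330713), Cyp2c37 (ENSMUSG00000042248, chr19:39992424-40012243), Cyp2c54 (ENSMUSG00000067225, chr19:40037940-40073827, minus strand) and Cyp2c50 (ENSMUSG00000054827, chr19:40089688-40113950).

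Close paralogs limit what each count means, and the sequences show how close they are. The coding start of Cyp2c50 is printed with those of Cyp2c54 and Cyp2c37, its neighbours on chromosome 19; capitals mark bases that differ from Cyp2c50 (GRCm38, strand of the gene, 60 bases from the start codon; chr19:40089700-40089759 +, chr19:40073752-40073811 - and chr19:39992440-39992499 +).
Cyp2c50: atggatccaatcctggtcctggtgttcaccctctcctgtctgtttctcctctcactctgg
Cyp2c54: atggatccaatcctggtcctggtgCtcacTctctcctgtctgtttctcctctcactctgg
Cyp2c37: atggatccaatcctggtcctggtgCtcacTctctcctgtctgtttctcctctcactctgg
Over the whole coding sequence Cyp2c37 and Cyp2c50 were 96.1% identical, Cyp2c50 and Cyp2c54 95.2%, and Cyp2c37 and Cyp2c54 95.1%. Of all 50-base windows of the Cyp2c37 transcript, 30.1% also occurred in another gene, against 30.7% for Cyp2c50 and 25.7% for Cyp2c54. Reads from these windows cannot be given to 1 gene. In the deposited table the count was not a whole number in 100% of libraries for Cyp2c37 and in 98.8% for Cyp2c50 and for Cyp2c54, against 0% for Cyp3a13 and Cyp2c55. The share was also 100% for Cyp3a25, 99.4% for Cyp3a11, 95.8% for Cyp2b10 and 64.7% for Cyp2c29.

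Cyp2b10 and Cyp3a11 have paralogs that matter for the sexes, shown here in the same way, with capitals marking differences from the gene printed above them (Cyp2b10 chr7:25897685-25897744 + and Cyp2b13 chr7:26061520-26061579 +; Cyp3a11 chr5:145879717-145879776 - and Cyp3a41a chr5:145719990-145720049 -).
Cyp2b10: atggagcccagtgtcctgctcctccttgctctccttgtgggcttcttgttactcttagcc
Cyp2b13: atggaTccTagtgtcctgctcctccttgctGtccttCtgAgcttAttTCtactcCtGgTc
Cyp3a11: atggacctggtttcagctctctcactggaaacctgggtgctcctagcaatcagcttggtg
Cyp3a41a: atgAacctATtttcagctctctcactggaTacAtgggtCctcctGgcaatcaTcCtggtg
Cyp2b13 differed from Cyp2b10 at 11 of these 60 bases and Cyp3a41a from Cyp3a11 at 9. Coding identity was 87.2% for Cyp2b10 and Cyp2b13 and 95.2% for Cyp3a11 and Cyp3a41a. Shared windows made up 10.2% of the Cyp2b10 transcript and 14.8% of the Cyp3a11 transcript. Cyp3a25 shared 26.8% of its windows, nearly all with Cyp3a59, to which it was 97.5% identical. Cyp2c29 shared 2.08% and Cyp2c55 0.514%, mostly or wholly with pseudogenes, and Cyp3a13 shared none. Cyp3a13 and Cyp2c55 had the smallest shared parts.

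Promoters from RefSeq (GRCm38.p6, 250 bases before to 50 after the start) were found for 8 of the 9 genes. Those of Cyp2c37 (chr19:39992174-39992473 +) and Cyp2c50 (chr19:40089429-40089728 +) are shown because these close genes differed in how they followed sex. Capitals mark a match, read on the opposite strand, to AGTTCA, a hexamer that occurs in binding sites of PXR and CAR.
Cyp2c37: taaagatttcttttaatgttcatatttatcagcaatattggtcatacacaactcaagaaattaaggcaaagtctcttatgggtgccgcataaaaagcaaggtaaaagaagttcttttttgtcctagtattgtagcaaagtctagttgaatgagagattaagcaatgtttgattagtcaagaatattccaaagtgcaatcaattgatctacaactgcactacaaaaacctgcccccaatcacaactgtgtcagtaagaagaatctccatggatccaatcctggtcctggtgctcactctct
Cyp2c50: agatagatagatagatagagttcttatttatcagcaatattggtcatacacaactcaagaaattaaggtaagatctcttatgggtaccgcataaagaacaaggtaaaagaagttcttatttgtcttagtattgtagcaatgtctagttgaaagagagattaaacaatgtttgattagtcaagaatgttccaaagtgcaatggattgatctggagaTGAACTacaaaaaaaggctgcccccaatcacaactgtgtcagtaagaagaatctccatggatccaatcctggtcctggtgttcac
The 2 promoters differed by 41 edits over 300 bases, 86.3% alike, while all other pairs of the 8 promoters were 43% to 58.7% alike. The 3 motifs searched, on both strands, were AGGTCA, the nuclear receptor hexamer, its variant AGTTCA, and TATAAA, the TATA box. AGGTCA had 2 matches in Cyp3a25 and 1 each in Cyp3a11 and Cyp2c29, AGTTCA had 1 each in Cyp3a11 and Cyp2c50, and TATAAA had 1 each in Cyp3a11, Cyp2c29 and Cyp2c55. Of all 27025 promoters of this length, 16% held AGGTCA, 14% AGTTCA and 14.2% TATAAA. Cyp2b10, Cyp3a13 and Cyp2c37 held none of the 3 in this window.

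Per length, Cyp3a11 was the most abundant of the 9 and Cyp2c55 the least. Over the 167 libraries the mean FPKM (± SD) was 2073 ± 820.1 for Cyp3a11, 1032 ± 236.3 for Cyp2c29, 543.8 ± 91.16 for Cyp2c50, 405.7 ± 217.7 for Cyp2c37 and 358.9 ± 68.62 for Cyp3a25. It was 220.7 ± 50.93 for Cyp2c54, 65.81 ± 15.61 for Cyp3a13, 27.36 ± 23.45 for Cyp2b10 and 6.331 ± 3.635 for Cyp2c55. Among neighbours in that order, Cyp2c50 and Cyp2c37, and Cyp2c37 and Cyp3a25, differed by less than their spread over libraries, while the step from Cyp2c54 to Cyp3a13 exceeded it. Single libraries of Cyp3a11 ran from 499.1 to 4101 FPKM with a median of 1972, and those of Cyp2b10 from 3.01 to 246.8 FPKM with a median of 23.04.

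How far livers of the same genotype, age and sex differed also depended on the gene. The standard deviation of log2 CPM within the 42 cells of genotype, age and sex was 0.59 for Cyp2b10 and 0.55 for Cyp2c55, the lowest 2 in FPKM. It was 0.33 for Cyp3a11 and for Cyp2c54, 0.31 for Cyp2c37, 0.26 for Cyp2c50, 0.24 for Cyp2c29, and 0.22 for Cyp3a13 and for Cyp3a25. The same difference is therefore measured less precisely in Cyp2b10 and Cyp2c55 than in Cyp3a13 or Cyp3a25.

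**Figure D1:**
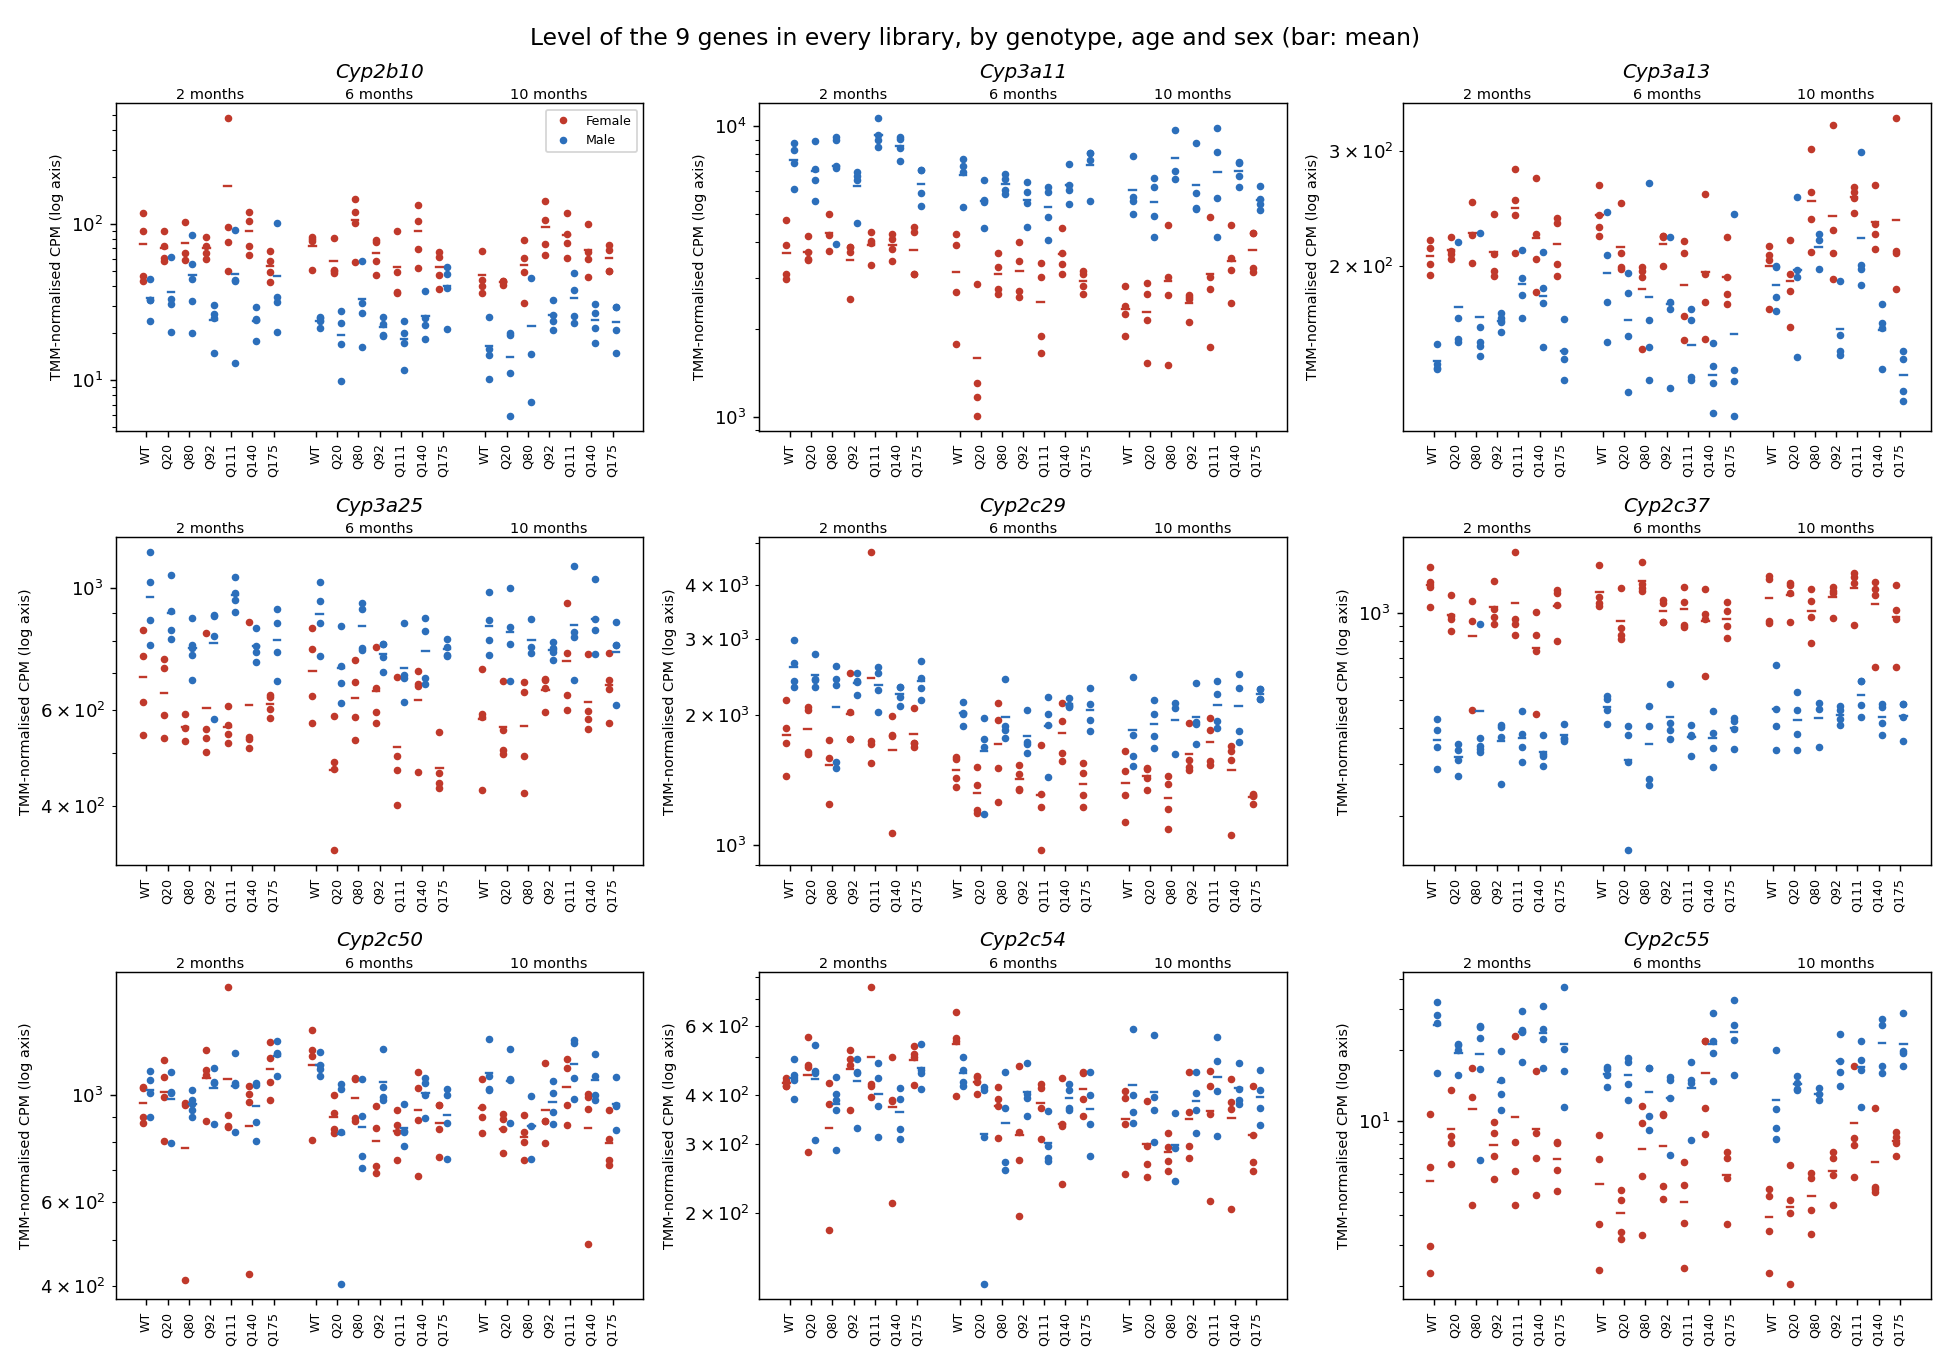
Level of each of the 9 genes in every library, in TMM-normalised CPM on a log axis, for the 7 genotypes (low to high repeat number) at 2, 6 and 10 months; points are libraries (red females, blue males) and bars are means of each sex. Cyp3a11 in females is lowest in the Q20 livers of 6 months (1007 to 2866 CPM), and the Q111 female with 476.8 CPM of Cyp2b10 stands alone at 2 months.

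The largest differences among the comparisons run were between the sexes. Cyp2b10, Cyp2c37 and Cyp3a13 were higher in females at every age, and Cyp3a11, Cyp2c55, Cyp3a25 and Cyp2c29 were lower in females at every age. Females against males, 7, 7 and 9 of the 9 genes were called at 2, 6 and 10 months. The background was high, at 57.6%, 60.9% and 57.2% of all genes tested. At each age 3 genes were higher in females (background 29.8%, 31.4% and 30%), and 4, 4 and 6 were lower (27.7%, 29.5% and 27.2%). Cyp2c50 and Cyp2c54 made up the difference between the ages.

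Cyp2c37, an arachidonic acid hydroxylase, was higher in females with little or no overlap of the sexes. At 2 months its level ran from 449.3 to 1611 CPM in females (median 974.4), against 257 to 909.8 CPM in males (median 354.1). At 6 months the range was 605.5 to 1493 CPM in females (median 1065), against 152.2 to 567.3 CPM in males (median 396.2). The highest male value at 2 months is the library labelled male M5, and the sexes did not overlap at 6 months. At 10 months females ran from 648.6 to 1372 CPM (median 1168) and males from 336.2 to 658.2 CPM (median 463.7). Females over males, the 3 ages gave log2 fold changes of 1.44, 1.44 and 1.28, with adjusted p of 2.05e-18, 1.86e-22 and 9.43e-22, and 1.49 at 2 months without M5.

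Cyp2b10 averaged 74.37 ± 51.5 CPM in females and 29.09 ± 16.87 CPM in males over all ages (SD, n = 83 and 84). Females over males gave 1.19, 1.46 and 1.5 on the log2 scale at the 3 ages, with adjusted p of 9.08e-07, 9.08e-14 and 7.68e-14. Without the Q111 female F2 the 2-month value was 1.02 (adjusted p = 1.24e-06). Medians were 67.12, 63.75 and 60.44 CPM in females and 31.78, 23.51 and 21.62 CPM in males at the 3 ages, and the ranges of the sexes overlapped at each age. Cyp3a13, a form of liver and intestine, averaged 217.3 ± 34.84 CPM in females and 170.5 ± 35.42 CPM in males, with log2 fold changes of 0.41, 0.31 and 0.35.

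Cyp3a11, which metabolises drugs and steroids and is the mouse counterpart of the main human liver CYP3A, averaged 3185 ± 912.6 CPM in females and 6696 ± 1514 CPM in males. At 2 months it ran from 2537 to 4976 CPM in females (median 3831), against 3920 to 10670 CPM in males (median 7290). Females over males, the log2 fold changes of the 3 ages were -0.96, -1.13 and -1.15, with adjusted p of 3.74e-17, 6.04e-15 and 4.27e-14. The lowest male of 2 months is again the library labelled M5, with 3920 CPM where the other males started at 4637 CPM. Cyp2c55, an inducible form also found in the gut, averaged 7.394 ± 4.32 CPM in females and 18.26 ± 6.23 CPM in males, with log2 fold changes of -1.30, -1.27 and -1.44. Cyp3a25 averaged 605 ± 115.4 CPM in females and 819.1 ± 115 CPM in males (log2 fold change -0.48, -0.44 and -0.39), and Cyp2c29 1608 ± 457.4 CPM in females and 2099 ± 333.8 CPM in males (-0.34, -0.37 and -0.46).

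Cyp2c50 and Cyp2c54, epoxygenases of arachidonic and linoleic acid, differed least between the sexes. Cyp2c50 averaged 938.3 ± 193.3 CPM in females and 1007 ± 155.4 CPM in males, with log2 differences of -0.06 and -0.04 at 2 and 6 months, neither called (95% intervals -0.21 to 0.08 and -0.17 to 0.09), and -0.20 at 10 months (adjusted p = 0.0015). Cyp2c54 averaged 387.5 ± 103.2 CPM in females and 394.7 ± 80.71 CPM in males, with differences of 0.05 and 0.11, not called, and -0.26 at 10 months (adjusted p = 0.0065). Neither 10-month call passed with limma on log2(FPKM + 0.1), where the values were -0.06 for Cyp2c50 and -0.11 for Cyp2c54. When the counts of Cyp2c37, Cyp2c50 and Cyp2c54 were summed, females were higher by 0.41, 0.48 and 0.31 on the log2 scale at the 3 ages.

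**Figure D2:**
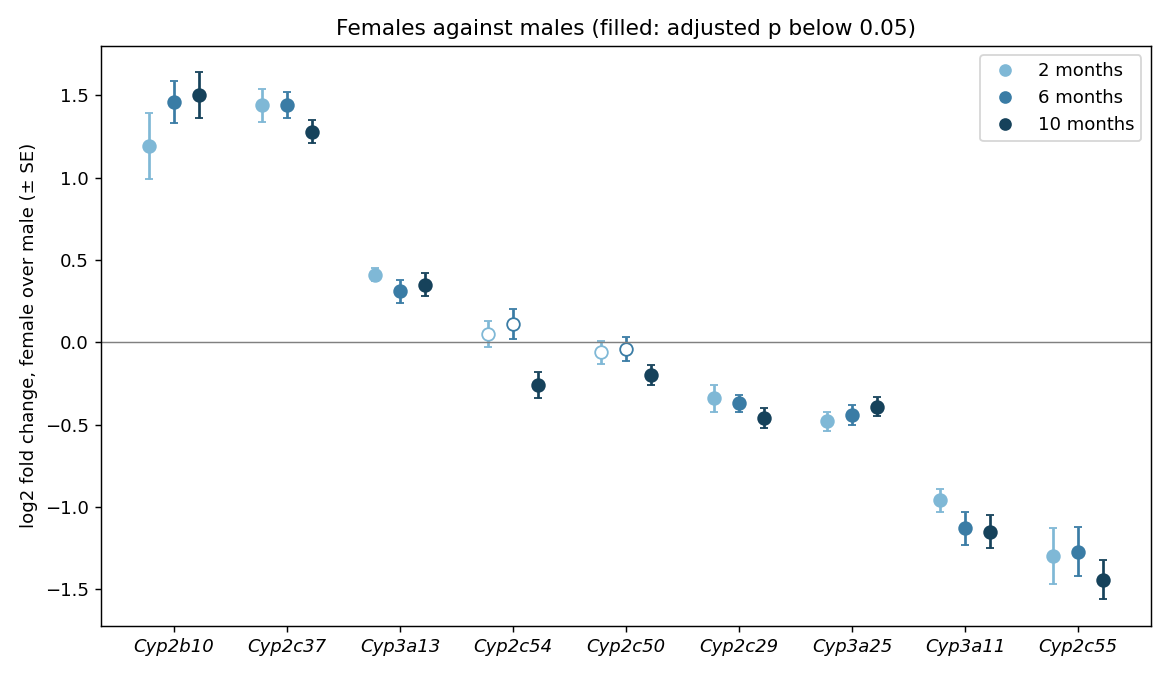
Log2 fold change of females over males for the 9 genes at 2, 6 and 10 months (y axis), with standard errors as bars; filled points have an adjusted p below 0.05. Cyp2b10 and Cyp2c37 lie at 1.19 or above, Cyp3a11 and Cyp2c55 at -0.96 or below, and Cyp2c50 and Cyp2c54 close to 0.

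Set beside their paralogs, the genes took different shares of their families in the sexes. In females Cyp2b10 was a small part of the family, since Cyp2b9 and Cyp2b13, both female-type forms, were far higher: at 2 months the mean FPKM in females was 317.2 ± 39.84 for Cyp2b9, 156.1 ± 41.61 for Cyp2b13 and 46.28 ± 41.65 for Cyp2b10 (n = 27). In males it was 0.9465 ± 1.48 for Cyp2b9, 0.09183 ± 0.06721 for Cyp2b13 and 18.3 ± 11.03 for Cyp2b10 (n = 28, without the library M5). The Cyp2b10 share of the 3 was 8.555% in females and 95.86% in males. Summed over the 3 genes, females were higher by 4.47, 5.14 and 5.18 on the log2 scale at 2, 6 and 10 months, and by 4.68 at 2 months without M5.

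Cyp3a11 made up 79.04%, 78.2% and 64.86% of its group of 5 close paralogs in females at 2, 6 and 10 months, and 99.95%, 99.96% and 99.94% in males. Most of the rest in females was Cyp3a41a, at 408.8 ± 258.7, 335.4 ± 276.5 and 638.7 ± 425.5 FPKM, against 0.7336 ± 0.1914, 0.5056 ± 0.2523 and 0.7665 ± 0.2868 FPKM in males. With the 5 summed, the log2 fold change of females over males was -0.65, -0.79 and -0.54, and -0.69 at 2 months without M5. Within Cyp2c37, Cyp2c50 and Cyp2c54, the Cyp2c37 share was 40.6%, 43.67% and 46.61% in females, against 19.23%, 22.26% and 23.56% in males. Of the listed close paralogs, 12 of 15, 11 of 14 and 12 of 15 tested were higher in females at 2, 6 and 10 months and 1 was lower at each age. Over all genes tested, 29.8%, 31.4% and 30% were higher and 27.7%, 29.5% and 27.2% lower. The median of the paralogs was 4.47, 5.28 and 5.92 on the log2 scale, against 0.01, 0.01 and 0.02 for all genes.

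**Figure D3:**
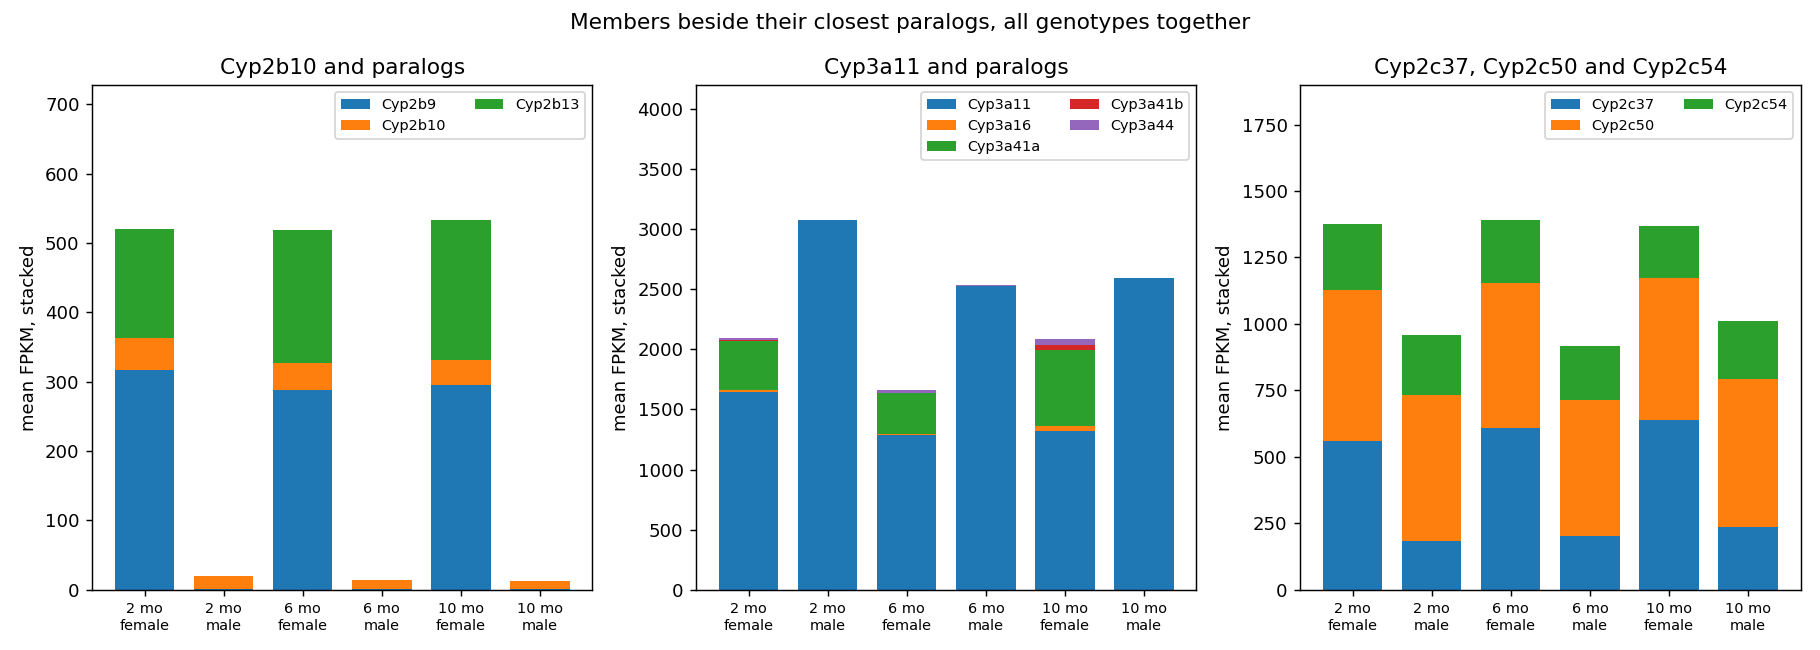
Mean FPKM of Cyp2b10, Cyp3a11 and the trio Cyp2c37, Cyp2c50 and Cyp2c54 with their close paralogs, stacked, in females and males at 2, 6 and 10 months over all genotypes (without the library labelled male M5). Cyp2b9 and Cyp2b13 fill the female Cyp2b bars, and Cyp3a41a appears in the female Cyp3a11 bars but is under 1 FPKM in males.

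Regulators and partners of these enzymes were called between the sexes among many other genes. Of 12 listed regulators and P450 partners, 7, 7 and 7 were higher and 2, 3 and 3 lower in females at 2, 6 and 10 months. Over all genes tested the shares were 29.8%, 31.4% and 30% higher and 27.7%, 29.5% and 27.2% lower. Nr1i3, which encodes CAR, was higher in females by 1.03, 1.17 and 1.03 on the log2 scale (adjusted p = 2.71e-11, 2.86e-16 and 3.12e-12), and Nr1i2, which encodes PXR, by 0.35, 0.40 and 0.42. Por, the reductase that passes electrons to all these P450s, was higher by 0.95, 1.22 and 1.06. Egfr, whose signalling is known to hold CAR in the cytoplasm, was lower in females, with log2 fold changes of -1.64, -1.78 and -2.31.

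Among 24 other listed CAR and PXR targets, 12 of 23, 12 of 22 and 11 of 23 tested were higher in females at the 3 ages, and 8, 8 and 6 were lower, beside the same shares over all genes. The median was 0.40, 0.24 and 0.23, against 0.01, 0.01 and 0.02 for all genes. Abcb1a, a drug efflux pump, had log2 fold changes of 2.46, 2.76 and 2.56, Akr1b7, an aldo-keto reductase, 2.92, 3.15 and 3.40, and Abcc4, an efflux pump, 1.36, 1.78 and 2.16. Ugt1a1, the bilirubin-conjugating enzyme, had 0.74, 0.83 and 0.69. Kupffer cell and macrophage markers were also higher in females, in 7, 7 and 6 of 7 at the 3 ages, and their part in these results was not tested.

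At 2 months none of the 9 genes was called in any comparison of genotypes. The slope on repeat length, fitted over the 6 knock-in lines with sex as a term and given per 100 repeats, lay between -0.05 (Cyp3a25) and 0.11 (Cyp2c50), and none was called (background 0.272%). Each repeat length is 1 line, housed with its own, so repeat length cannot be told apart from line or housing. This holds at every age, for the slope and for lines against Q20. The slope fit had no term for line, so libraries of a line counted as separate values. Against Q20, none of the 9 was called in Q175 (0.31%), Q140 (0%), Q111 (0%), Q92 (0%) or Q80 (0.0991%) by edgeR's quasi-likelihood test, nor in Q20 against WT (0%). At an unadjusted p below 0.05 there were 2 in Q111 (Cyp2b10 and Cyp3a13), 2 in Q80 (Cyp3a25 and Cyp2c54) and 0 in the slope and the other comparisons, and DESeq2 called 0 in each. The intervals still allow changes: the 95% interval of the slope was -0.45 to 0.54 for Cyp2b10 and -0.14 to 0.20 for Cyp3a11. Cyp2b10 in Q111 stood at 0.89 over Q20 (adjusted p = 0.824), with 96.06, 476.8, 76.44 and 50.43 CPM in Q111 females against 90.5, 60.38, 72.35 and 57.84 CPM in Q20 females. The ranges overlapped, and without the female with 476.8 CPM the value was 0.27 (adjusted p = 0.924). Among the other listed targets, Sult1e1, an oestrogen sulfotransferase, was called alone, with a slope of 1.74 (adjusted p = 0.0171) and 2.51 in Q175 over Q20 (adjusted p = 0.0245). Among the close paralogs, 4 of 15 tested were called in Q80 over Q20 at this age, among them Cyp2b13, at 6.90 (adjusted p = 0.00121), and the Q80 group holds the library labelled male M5. Without M5, 0 of the 15 were called and Cyp2b13 was at 0.08 (adjusted p = 0.943).

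At 6 months Cyp3a11 was higher in Q175, Q140 and Q80 than in Q20. Its slope was 0.37 ± 0.11 per 100 repeats (adjusted p = 0.0329), the only slope called among the 9 (background 6.27%). Over Q20 it was higher by 0.61 ± 0.18 in Q175 (adjusted p = 0.0202), by 0.66 in Q140 (0.0192) and by 0.53 in Q80 (0.0452). Summed with its close paralogs it was not called in the slope (0.28, adjusted p = 0.097) or in Q175 (0.44, 0.0601). The sum was still called in Q140 (0.53, 0.0389) and in Q80 (0.49, 0.0417). Cyp2c55 had a slope of 0.58 (adjusted p = 0.0536), not called. Summed with Cyp2c65 and Cyp2c66 it was called, at 0.58 (0.0451). In Q92 the value of Cyp3a11 was 0.46 (adjusted p = 0.0589) and in Q111 it was 0.24 (not called).

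The libraries show where the difference lay. In Q175 females Cyp3a11 had 3189, 2650, 3102 and 2817 CPM, in Q140 females 3666, 4460, 3358 and 3112 CPM, and in Q20 females 1007, 2866, 1312 and 1166 CPM. In males it had 5515, 7667, 8098 and 8102 CPM in Q175, 6060, 7442, 5408 and 6268 CPM in Q140, and 4472, 5563, 5479 and 6554 CPM in Q20. The Q20 females F1, F3 and F4 thus lay below every other female of this age, and in males the ranges of Q175 and Q20 overlapped. The slope fitted apart was 0.56 in females (adjusted p = 0.125) and 0.23 in males (0.241), and the test of the difference of slopes between the sexes called none of the 9 (background 0.226%).

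The same Q20 females also had the 3 highest macrophage marker sums of the 28 females. From the highest, F1, F3 and F4 ranked 4th, 3rd and 10th in summed acute phase markers. They ranked 2nd, 3rd and 6th in summed neutrophil markers and 27th, 20th and 12th in summed hepatocyte markers. The summed level of 7 Kupffer cell and macrophage markers was 812.9, 538.5, 810.8 and 954.6 CPM in the Q20 females F1 to F4, against a median of 389.3 CPM over the others. In Q175 females the sum ran from 401.9 to 435.9 CPM, and in Q140 females from 259.8 to 357.6 CPM. All 7 markers were lower in Q175 than in Q20 at this age, with a median of -0.95, and all 7 in Q140, with a median of -0.84. All 7 were also lower in the slope, with a median of -0.57. In bulk tissue, fewer cells of a type and less RNA per cell cannot be told apart, and the part of these cells in the result was not tested. Without the 3 females, Cyp3a11 was at 0.26 in Q175 (adjusted p = 0.477), 0.29 in Q140 (0.476) and 0.17 in Q80 (0.696), and its slope was 0.17 (0.466). The call in Q175 was lost without any 1 of the 3, at 0.50 without F1, 0.53 without F3 and 0.52 without F4, with adjusted p of 0.0637, 0.0575 and 0.0559.

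In Q175 over Q20 at 6 months, Cyp3a11 was the only 1 of the 9 called (background 10.9%). The others ran from -0.12 (Cyp3a13) to 0.57 (Cyp2c55, adjusted p = 0.187), with Cyp2b10 at 0.54 (0.142). Summed with Cyp2b9 and Cyp2b13, Cyp2b10 was called in Q175, at 0.60 (adjusted p = 0.0336). The median of the 9 was 0.19, against -0.01 for all genes.

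Q140 had 3 of the 9 called over Q20 at 6 months (background 5.98%): Cyp3a11, Cyp2c29 and Cyp2c55. Cyp2c29, a phenobarbital-inducible epoxygenase of arachidonic acid, had 1929, 1630, 2133 and 1562 CPM in Q140 females against 1375, 1513, 1183 and 1201 CPM in Q20 females, and 2088, 2106, 2097 and 2181 CPM in Q140 males against 1754, 1180, 1688 and 1964 CPM in Q20 males. The groups did not overlap in either sex, and the log2 fold change was 0.40 (adjusted p = 0.0121). Cyp2c55 had 11.38, 21.87, 21.97 and 8.813 CPM in Q140 females against 5.11, 4.652, 3.181 and 3.414 CPM in Q20 females, without overlap. Its males overlapped, with 14.76, 19.5, 21.87 and 28.83 CPM in Q140 against 17.79, 14.34, 12.32 and 18.61 CPM in Q20. Its log2 fold change was 1.20 (adjusted p = 0.00831), the highest value over Q20 in any line at any age among the 9. Without those 3 Q20 females the values were 0.38 for Cyp2c29 (adjusted p = 0.128) and 0.96 for Cyp2c55 (0.172).

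Q80 had 4 called over Q20 (background 9.3%). Cyp2b10 was higher by 0.81 (adjusted p = 0.0285), with 119.3, 102.3, 143.8 and 57.09 CPM in Q80 females against 50.32, 81.35, 50.49 and 48.67 CPM in Q20 females, and 31.26, 16.32, 26.9 and 58.24 CPM in Q80 males against 27.77, 17.04, 9.881 and 23.14 CPM in Q20 males. Both sexes overlapped. Summed with Cyp2b9 and Cyp2b13 the value was 0.56 (adjusted p = 0.0518). Cyp3a11 was higher by 0.53, Cyp3a25 by 0.33 (adjusted p = 0.0432) and Cyp2c29 by 0.31 (0.0417). Each of these 4 calls was lost when any 1 of the Q20 females F1, F3 and F4, the Q80 female F3 or the Q80 male M4 was left out. Without the 3 Q20 females together Cyp2b10 was at 0.73 (adjusted p = 0.256), Cyp3a25 at 0.21 (0.445) and Cyp2c29 at 0.29 (0.275). In Q111 none of the 9 was called (background 1.24%) and in Q92 none (background 18%), where the share of all genes called was the highest among the lines. At an unadjusted p below 0.05 there were 0 in Q111 and 2 in Q92 (Cyp3a11 and Cyp3a25), and DESeq2 called 0 in Q111 and 1 in Q92.

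The slope of repeat length at 6 months, with 6.27% of all genes called, included single genes of the pathway lists. Of the 12 regulators 1 was called in the slope, Nr1h4, which encodes the bile acid receptor FXR, at 0.20 (adjusted p = 0.0433), and it was higher by 0.37 in Q175 over Q20 (0.00473). Nr1i2 (PXR) was called in Q92, at 0.34, and in no other line at this age (adjusted p = 0.0427 in Q92). Of 22 other targets tested, 1 was called in the slope, Gstm1, a glutathione transferase, at 0.27 (adjusted p = 0.0202). Ces2a, a carboxylesterase, was called in Q175, at 0.40 (adjusted p = 0.0438).

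Q20 livers of 6 months were lower than WT in 4 of the 9, and none was higher (background 32.2%). Cyp3a11 was at -0.59 (adjusted p = 0.00787), Cyp3a25 at -0.44 (0.00135), Cyp2c37 at -0.45 (0.0128) and Cyp2c50 at -0.40 (0.0116), and the median of the 9 was -0.39 against 0.02 for all genes. Cyp3a25 had 480.8, 583.1, 468.2 and 332.6 CPM in Q20 females against 771.8, 846.1, 634 and 567 CPM in WT females, and 850, 719.3, 616.7 and 669.5 CPM in Q20 males against 1024, 947.8, 861.4 and 749.5 CPM in WT males. Cyp2c37 had 379.3, 152.2, 305.7 and 405.5 CPM in Q20 males against 413, 502.2, 514.2 and 462.1 CPM in WT males, which did not overlap. For Cyp3a25 the ranges of Q20 and WT overlapped in both sexes.

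The WT libraries of 6 months carry a different set of index codes in their names from all knock-in libraries of that age, so genotype and index set cannot be told apart in this comparison. The Kupffer and macrophage markers were higher in Q20 than in WT for 6 of 7, with a median of 0.74. With the same 3 Q20 females left out, Cyp3a11 was at -0.24 (adjusted p = 0.324) and Cyp2c37 at -0.42 (0.0754), while Cyp3a25 and Cyp2c50 were still called. Among regulators, Nr1h4 (-0.37) and Cyb5a (-0.39), which encodes cytochrome b5, were lower in Q20 than in WT, and Por (0.39) and Rxra (0.19) were higher. DESeq2 called 5 of the 9. At 10 months the same comparison called none of the 9 (background 0.0127%), with values from -0.19 (Cyp2b10) to 0.19 (Cyp2c55). There were 0 at an unadjusted p below 0.05 and 0 by DESeq2. The lines against Q20 share their Q20 libraries with each other and with Q20 against WT, so these results are not independent.

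**Figure D4:**
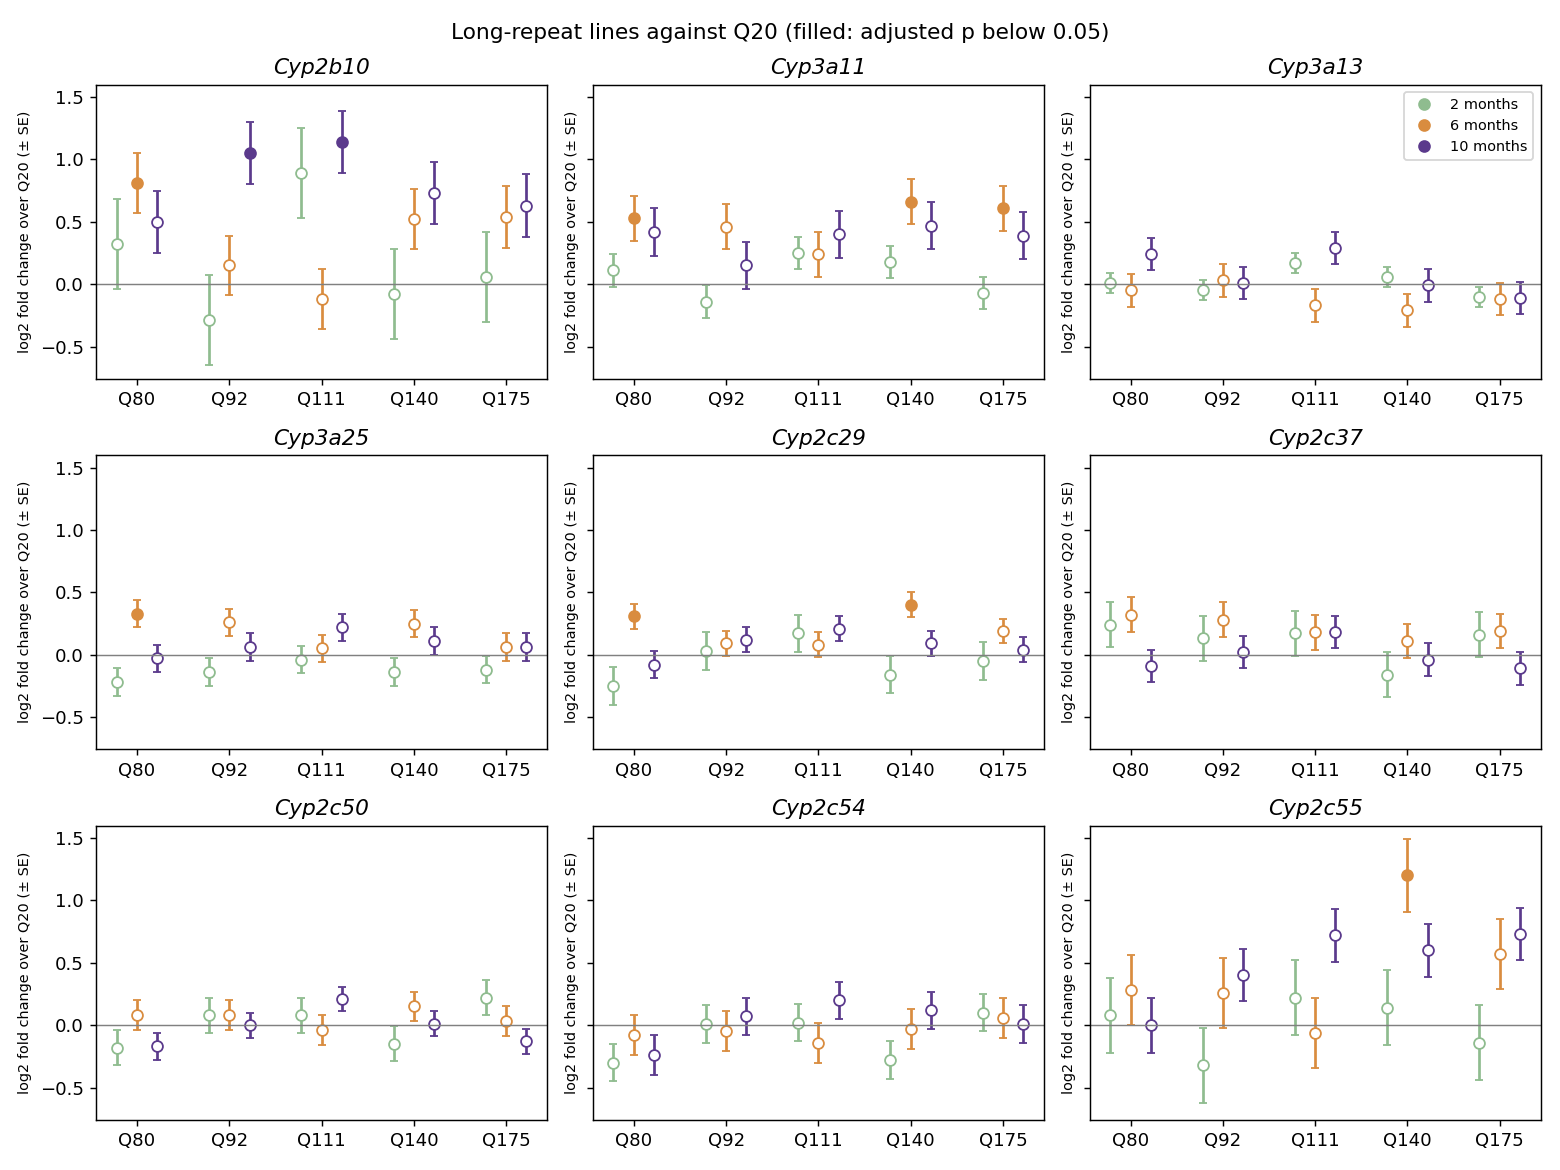
Log2 fold change over Q20 of the Q80, Q92, Q111, Q140 and Q175 lines for each of the 9 genes at 2, 6 and 10 months, with standard errors as bars; filled points have an adjusted p below 0.05. Filled points are Cyp3a11 in Q80, Q140 and Q175 at 6 months, Cyp2b10 in Q80 at 6 months and in Q92 and Q111 at 10 months, Cyp3a25 in Q80, Cyp2c29 in Q80 and Q140, and Cyp2c55 in Q140, all at 6 months.

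At 10 months the genes called were Cyp2c55 and Cyp2b10. Cyp2c55 had a slope on repeat length of 0.52 ± 0.13 per 100 repeats (adjusted p = 0.0343), the only slope called (background 0.595%). Over Q20 it was at -0.00 in Q80, 0.40 in Q92, 0.72 in Q111 and 0.60 in Q140, none of them called. The lines thus did not rise step by step with repeat number. In Q175 it had 9.05, 7.113, 8.585 and 8.133 CPM in females, against 4.648, 2.04, 4.085 and 6.51 CPM in Q20 females. In males it had 17.1, 19.53, 28.78 and 19.82 CPM in Q175 against 15.55, 13.75, 13.6 and 14.5 CPM in Q20, so the groups did not overlap in either sex. The Q175 difference itself was 0.73 with an adjusted p of 0.0713, and none of the 9 was called in Q175 (background 1.26%), with 3 at an unadjusted p below 0.05 and 1 called by DESeq2. The slope was 0.54 without the libraries with muscle or blood RNA (adjusted p = 0.247) and 0.61 without the Q175 libraries (0.896). It also missed the threshold without the Q175 libraries F1, F3, F4, M3 or M4 or the Q20 libraries F1, F2, F3 or M3, with values of 0.46 to 0.53. In Q111 over Q20 the adjusted p of Cyp2c55 was 0.0814. Summed with Cyp2c65 and Cyp2c66 it was called there, at 0.78 (0.0403).

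Cyp2b10 was higher than in Q20 in Q111 and Q92. Over Q20 it was at 1.14 in Q111 (adjusted p = 0.0073), 1 of 9 called (background 1.11%), and at 1.05 in Q92 (0.011), also 1 of 9 (background 4%). In females it had 117.7, 60.61, 75.7 and 86.25 CPM in Q111 and 141, 63.56, 106.3 and 74.3 CPM in Q92, against 43.51, 42.38, 40.63 and 43.17 CPM in Q20. In males it had 25.71, 23.22, 37.76 and 48.6 CPM in Q111 and 24.11, 26.35, 32.89 and 20.99 CPM in Q92, against 5.916, 19.38, 11.15 and 19.99 CPM in Q20. Every Q111 and Q92 liver lay above every Q20 liver of its sex. The other lines had higher values too, without a call: 0.73 in Q140, 0.63 in Q175 and 0.50 in Q80, where none of the 9 was called (background 0.00637% in Q140 and 0.0127% in Q80). At an unadjusted p below 0.05 there were 3 in Q140 and 1 in Q80, and DESeq2 called 0 in each.

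The 4 Q20 females of 10 months lay within 40.63 to 43.51 CPM. Beside both calls the marker Krt19, picked after its values were seen, was higher. Krt19, a bile duct keratin, was higher in Q111 by 3.66 (adjusted p = 0.00361) and in Q92 by 2.43 (0.0484). It is 1 of 5 listed bile duct markers, and the others are not given singly here. The sum of 5 bile duct markers ran from 33.72 to 150.8 CPM in Q111 males, where M3 alone exceeded 76.4 CPM, and from 43.54 to 55.7 CPM in Q20 males. In the Q92 male M4 this sum was 51.88 CPM, the 13th highest of 27 males. Without the libraries with Krt19 above 10 CPM, Cyp2b10 was at 1.19 in Q111 (adjusted p = 0.223) and 1.01 in Q92 (0.0755), neither called. The Q111 male M3 was also the highest of 27 males in summed intestine markers (71.56 CPM), pancreas markers (34.28 CPM, against at most 18.65 CPM in the others) and skeletal muscle markers (0.6803 CPM). The Q92 male M4 was the second highest in intestine markers, at 65.15 CPM. The part of these cell types in the result was not tested. Without M3 alone the Q111 value was 1.10 (0.0898). Summed with Cyp2b9 and Cyp2b13, Cyp2b10 was 0.56 in Q111 and 0.33 in Q92, neither called. Cyp2c65, a gut P450, was higher by 4.82 in Q111 (adjusted p = 6.94e-05) and 3.47 in Q92 (0.0277). Its level was very low. At 10 months its mean over all genotypes was 0.08346 ± 0.1779 FPKM in females and 0.08965 ± 0.3743 FPKM in males (SD). The spread exceeded the mean in both sexes, and no value of Cyp2c65 without M3 is given here.

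No difference of slopes between the sexes or the ages was called. The difference of slopes between females and males called none of the 9 at 2 months (background 0%), 6 months (0.226%) or 10 months (background 0.173%). The difference of the slope at 10 against 2 months also called none (background 0.972%). Its largest values were 0.52 for Cyp2c55 (95% interval 0.05 to 0.99, adjusted p = 0.262) and 0.36 for Cyp2b10 (-0.26 to 0.97). At an unadjusted p below 0.05 there was 1 between the sexes at 10 months (Cyp3a13, 0.51), 0 at 2 and 6 months and 1 between the ages (Cyp2c55), and DESeq2 called 0 in each. No regulator was called in the slope at 10 months, and none of 23 other targets was.

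Most of these genes were lower at the later ages. In the knock-in lines, 8 of the 9 were lower at 6 than at 2 months and none was higher, when 53.1% of all genes were called (27.7% higher, 25.4% lower). The values were -0.41 for Cyp2b10, -0.38 for Cyp3a11, -0.30 for Cyp2c29 and for Cyp2c55, -0.21 for Cyp2c54, -0.15 for Cyp2c50, -0.12 for Cyp3a25 and -0.11 for Cyp3a13. The index codes in the library names nearly follow age: of the knock-in libraries 42 carried 1 set of codes and 6 no code at 2 months, and 46 carried another set and 2 no code at 6 months. Age and index set can therefore hardly be told apart, and with the index set as a covariate, which leans on the few libraries with no code, none of the 9 was called at 6 against 2 months. Without the Q111 female F2, 6 were called, with Cyp3a13 at -0.11 (adjusted p = 0.0545) and Cyp2c55 at -0.25 (0.0503). Without M5, Cyp3a13 was at -0.10 (adjusted p = 0.0681).

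At 10 against 2 months 6 of the 9 were called when 22.8% of all genes were. Cyp2b10 (-0.52, adjusted p = 0.00223), Cyp3a11 (-0.28), Cyp2c29 (-0.26), Cyp2c54 (-0.24) and Cyp2c55 (-0.34) were lower (background 9.37%). Cyp2c37 was higher, at 0.24 (adjusted p = 0.00317; background 13.4%). Without the Q111 female F2 Cyp2b10 was at -0.40 (adjusted p = 0.0148) and Cyp2c55 at -0.28 (0.0592). Both ages are set against the same 2-month libraries. Most knock-in libraries of 2 and 10 months carried the same set of index codes, but their names are numbered in separate blocks. Age therefore cannot be told apart from a difference between those sets of libraries. Female medians of Cyp3a11 were 3831, 2943 and 2693 CPM at 2, 6 and 10 months, and male medians 7290, 6052 and 6193 CPM. For Cyp2c37 female medians were 974.4, 1065 and 1168 CPM and male medians 354.1, 396.2 and 463.7 CPM. Cyp2c37, Cyp2c50 and Cyp2c54 summed had -0.01, and Cyp3a11 with its close paralogs -0.12 (adjusted p = 0.172).

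Among livers of the same genotype, age and sex, some of the 9 genes varied together. Rank correlations were taken over the 167 libraries after the mean of each genotype, age and sex was subtracted, and are given as descriptions only, since the points share libraries and depth. Cyp2c50 and Cyp2c54 had a Spearman rho of 0.89, Cyp2c29 and Cyp2c50 0.66, Cyp2c37 and Cyp2c50 0.59, Cyp3a11 and Cyp3a25 0.52, and Cyp3a11 and Cyp2c55 0.49. Cyp3a11 and Cyp2c50 stood at 0.00. Reads shared between Cyp2c50 and Cyp2c54 may enter both counts, and their part in the value was not tested.

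The genes most like each member among 10994, by the same measure, were mostly other liver enzymes. Cyp3a11 and Cyp2c55 were both most like Ces2a, the carboxylesterase on the list of other targets, at 0.68 each. Cyp2c37 was most like Ugt1a1 and Cyp2e1, at 0.68 each, and Cyp2b10 like Cps1 and Aass, enzymes of urea and lysine metabolism, at 0.59 each. Cyp3a25 was most like its paralog Cyp3a59 (0.81), Cyp3a13 like Cd302 (0.74), and Cyp2c29 like Cyp2c50 (0.66).

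**Figure D5:**
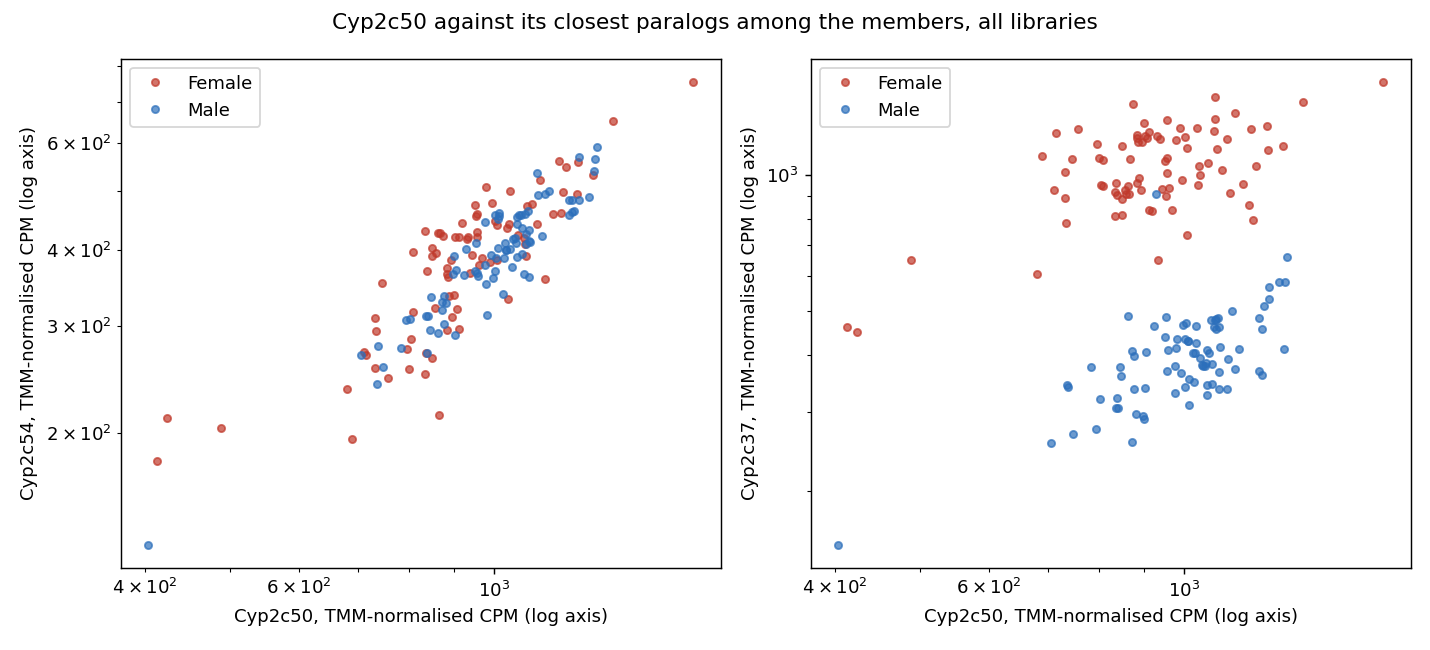
Cyp2c50 (x axis) against Cyp2c54 (left) and Cyp2c37 (right) in 167 libraries, in TMM-normalised CPM on log axes, females in red and males in blue. Cyp2c54 follows Cyp2c50 in both sexes alike, while Cyp2c37 lies on separate bands for females and males (1050 and 403.6 CPM on average).

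The highest and lowest means over the 21 groups were as follows. In females the mean of Cyp3a11 was highest in Q80 at 2 months, at 4304 ± 633.4 CPM, and lowest in Q20 at 6 months, at 1588 ± 861.4 CPM (SD, n = 3 and 4). In males it was highest in Q111 at 2 months, at 9368 ± 929.6 CPM, and lowest in Q111 at 6 months, at 5267 ± 993.2 CPM (n = 4 each). Cyp2b10 was lowest in Q20 at 10 months in both sexes, at 42.43 ± 1.284 CPM in females and 14.11 ± 6.787 CPM in males. Cyp2c55 was lowest in WT at 10 months in both sexes, at 3.931 ± 1.338 CPM in females and 12.28 ± 5.289 CPM in males, and its highest female mean was in Q140 at 6 months, at 16.01 ± 6.907 CPM. Cyp3a13 was highest in Q111 at 10 months in both sexes, at 254.9 ± 9.985 CPM in females and 220.8 ± 52.39 CPM in males.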

How the data were processed

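The table holds expected counts per gene and library, and a second table FPKM (fragments per kilobase, scaled to the library total), both as the authors deposited them. CASAVA 1.8.2 is named in the submitters' processing notes; aligner, counter and genome build: not given in the sources used here. Of all counts 14.1% were not whole, and they were rounded. Of 39179 gene IDs, 37607 matched a symbol. Libraries were grouped by genotype, age and sex from the labels. edgeR 4.0.16 (R 4.3.3) was run with TMM, filterByExpr and the quasi-likelihood test; p-values were Benjamini-Hochberg adjusted across every gene tested, at a threshold of 0.05. Lines were compared within an age with sex as a term, slopes were per 100 repeats over the knock-in lines, and ages were compared over the knock-in lines with genotype and sex as terms. The fits were tested on simulated data. Alternatives were DESeq2 1.42.0, limma 3.58.1 on log2(FPKM + 0.1) and log2(FPKM + 1), RLE scaling, no filter, an index covariate, a replicate block, each library left out, and members summed with close paralogs. Leaving out Q80, Q92, Q111 and Q140 libraries singly, the Q111 female F2, and M5 for paralogs and sums, was chosen after seeing the data.

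All 9 members are named. From each list at most 4 called genes are named, by smallest p, or 2 where none was called, and Nr1i3, Nr1i2, Ugt1a1, Cyp2b13, Krt19 and Cyp2c65 were chosen after their values were seen where they fall outside this rule. Likeness used genes for which the log2 of the mean CPM was 1 or more. The members and lists were chosen with earlier results of these data known. Symbols Ces6, Cyp2c44 and Rhbg were not matched and not used here.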

Additional observations from a re-analysis of the deposited data

Results flagged for a closer look

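In groups of 7 or 8 libraries, Dixon's ratio marked 12 single values among 189 tested, or 6.35%, where chance marks about 5%. The groups hold both sexes, so a gene that differs by sex has a wider range there, and Cyp2c50 and Cyp2c54 differed least by sex. Within its group, Cyp2c50 was lowest at 403.7 CPM in the Q20 male M2 of 6 months, 412.8 CPM in the Q80 female F2 of 2 months, 424.5 CPM in the Q140 female F1 of 2 months, 488.9 CPM in the Q140 female F4 of 10 months, 679.3 CPM in the Q140 female F2 of 6 months and 808.3 CPM in the WT female F3 of 6 months. Cyp2c54 was lowest at 131.1 CPM in the Q20 male M2, 204.1 CPM in the Q140 female F4 of 10 months and 236.4 CPM in the Q140 female F2 of 6 months. In the same Q80 female F2 Cyp3a11 was the highest of 27 females, at 4976 CPM, and in the Q140 female F2 the highest of 28, at 4460 CPM. The summed level of 6 pericentral hepatocyte markers was the lowest of 28 males in the Q20 male M2 (4913 CPM), the lowest of 27 females in the Q80 female F2 (5689 CPM) and the lowest of 28 in the Q140 female F2 (6550 CPM). It ranked 26th of 27 in the Q140 female F1 (5921 CPM), 25th of 28 in the Q140 female F4 of 10 months (8154 CPM) and 6th of 28 in the WT female F3 (11240 CPM). Cyp2e1, itself a P450, can make up most of this sum, with 7924 of 10260 CPM in the Q111 female F2 of 2 months. The other markers of the sum are not given singly. The part of pericentral cells in these values was not tested.

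Cyp2c29 was lowest at 1062 CPM in the Q140 female F1 of 2 months, where the other 7 libraries of the group ran from 1784 to 2319 CPM. It was highest at 4749 CPM in the Q111 female F2 of 2 months, against 1547 to 2578 CPM in the rest. Cyp3a25 was lowest at 461.8 CPM in the Q140 female F4 of 6 months, against 660.8 to 880.4 CPM in the rest.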

How the results depend on the processing

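The sex differences of Cyp2b10, Cyp2c37, Cyp3a11, Cyp3a13, Cyp3a25, Cyp2c29 and Cyp2c55 kept their direction and call under each alternative run. Cyp2c37, Cyp2c50 and Cyp2c54 summed were higher in females over males, at 0.41, 0.48 and 0.31 at 2, 6 and 10 months. The sign was opposite to that of Cyp2c50 alone, at -0.06, -0.04 and -0.20, which was called only at 10 months. It was also opposite to Cyp2c54 alone at 10 months (-0.26). At 10 against 2 months the sum was at -0.01, where Cyp2c37 alone was at 0.24. With the index covariate Cyp2c54 at 6 against 2 months was 0.04. Of 9 members, the 6-month slope called 1, against 2 with DESeq2 and without Krt19 libraries, and 0 with the index covariate, in either sex alone, by rank of repeat length, and without Q175, Q20 or the 3 Q20 females (0 to 2 with single libraries left out). Q175 at 6 months called 1, against 2 with only its 2 groups, and 0 with the index covariate, in either sex alone and without the 3 Q20 females (0 to 1 with single libraries left out). The other lines at 6 months called 7, against 4 without the filter and with either limma fit, 2 with only 2 groups and 0 without the 3 Q20 females (2 to 9 with single libraries left out). Q20 over WT at 6 months called 4, and 2 without those females. The 10-month slope called 1, and 0 with either limma fit, in either sex alone, and without Q175, Q20 or muscle and blood libraries (0 to 1 with single libraries left out). Q175 at 10 months called 0, and 1 with DESeq2 (0 to 1). The other lines at 10 months called 2, against 1 with either limma fit and with only 2 groups, and 0 without Krt19 libraries (1 to 2). Ages 6 against 2 called 8, against 3 with either limma fit and 0 with the index covariate. The cause was not tested. Cyp2c55 had the lowest counts of the 9, as few as 2.04 CPM in the libraries named, which limits its precision.

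Replicate numbers were not taken to pair the samples, since no label ties a number to a shared animal, litter or batch. Of 24 same-numbered sets of Q175 and Q20 libraries, 11 had a correlation of deviations above 0.1 (range -0.24 to 0.39). Differently numbered sets were not compared, so these correlations cannot decide whether the numbers pair samples. With a replicate block the slope called 2 of 9 at 6 months and 0 at 10 months, where Cyp2c55 was at 0.51 (adjusted p = 0.0566).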

Other observations

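The Q111 female F2 of 2 months had 476.8 CPM of Cyp2b10, where the other 26 females ran from 42.51 to 119.7 CPM. It was also the highest of 27 in Cyp2c29, Cyp2c37 (1611 CPM), Cyp2c50 (1686 CPM), Cyp2c54 (755.2 CPM) and Cyp2c55 (23 CPM). In Cyp3a11 it ranked 11th at 3972 CPM, and in Cyp3a25 18th at 541.6 CPM. Of 23 other CAR and PXR targets it was the highest in 2, Aldh1a7 and Gstt1, and among the highest 3 in 10. It was among the highest 3 in 4 of 12 regulators, in 5 of 14 genes of other P450 classes and in 2 of 19 close paralogs. The share of all genes that ranked as high in this library is not given here. Whether these counts stand out from it was not tested.

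Genes of other P450 classes also differed between the sexes. Cyp4a12a, a fatty acid hydroxylase of males, had log2 fold changes of females over males of -9.29, -9.82 and -9.54 at 2, 6 and 10 months, Cyp2d9 -5.16, -5.42 and -5.93, and Cyp7b1, an oxysterol hydroxylase, -3.34, -3.82 and -3.82.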
